A study of Homo sapiens with 6 samples.

Results

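The genes described here are 10 members of the MAGE family of cancer-testis antigens, MAGEA1, MAGEA2, MAGEA3, MAGEA4, MAGEA6, MAGEA8, MAGEA10, MAGEA12, MAGEB2 and MAGEC2. They are 10 of the 41 rows with a MAGE symbol and of the 58870 gene rows in the count table of the series. They were selected by symbol with their values in these libraries known, so that the set holds genes that HEK-293T cells express and genes that are silent in one or both genotypes. Their own values are therefore given as a description, with no test. HEK-293T cells, an immortalized line from human embryonic kidney, were compared as wild-type cells (WT, labelled Thumpd+/+) and as cells in which THUMPD1 had been disrupted (THUMPD1 KO), with 3 RNA sequencing libraries per genotype. THUMPD1 is the adaptor through which the enzyme NAT10 acetylates cytidine in certain tRNAs. THUMPD1 KO cells were made with CRISPR-Cas9 from a plasmid that carries GFP, and were later sorted as single cells. Differences that arise between single-cell clones and effects of THUMPD1 loss cannot be told apart in this design. The labels do not say whether libraries of one genotype came from separate cultures, so p values measure the spread between these libraries only.

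Cancer-testis antigens are genes whose transcription is normally held to germ cells and placenta and which reappear in many tumours. The MAGE-A, MAGE-B and MAGE-C genes of this class lie in clusters on the X chromosome, and their promoters are known to be kept silent by DNA methylation in somatic cells. MAGE proteins share a MAGE homology domain through which they bind RING-type ubiquitin ligases and steer them towards particular targets. A second group of MAGE genes, among them the MAGED, MAGEE, MAGEF and MAGEH genes, is transcribed in many adult tissues.

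Promoter sequences of silent and transcribed members were set side by side to see what they share. RefSeq promoter windows (GRCh38.p14, 250 bases before to 50 bases after a start site) were found for 8 of the 10 members, which had 14 windows. MAGEA1 and MAGEA10 had no entry. All 14 windows held the letters GGATGTG, searched on both strands, against 4.29% of the 35116 windows of all genes. These letters were chosen after the members' sequences had been read, so the count describes these windows and is no test. Nor are the windows separate occurrences. Both windows of MAGEA12 hold the same site, as do both of MAGEA2, and those of MAGEA3 and MAGEA6 are identical. Stretches of 67 bases, with GGATGTG in capitals, are shown for the expressed genes MAGEA3, MAGEA6, MAGEA2 and MAGEB2 and for the low or silent genes MAGEA12, MAGEC2, MAGEA4 and MAGEA8.
MAGEA3 (chrX:152698668-152698734, plus strand): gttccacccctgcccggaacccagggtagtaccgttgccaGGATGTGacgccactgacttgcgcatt
MAGEA6 (chrX:152769749-152769815, minus strand): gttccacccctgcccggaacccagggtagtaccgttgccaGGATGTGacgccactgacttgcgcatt
MAGEA2 (chrX:152753876-152753942, minus strand): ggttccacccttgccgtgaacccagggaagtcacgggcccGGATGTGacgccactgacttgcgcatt
MAGEB2 (chrX:30215460-30215526, plus strand): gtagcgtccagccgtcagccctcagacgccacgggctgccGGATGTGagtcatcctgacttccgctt
MAGEA12 (chrX:152733705-152733771, plus strand): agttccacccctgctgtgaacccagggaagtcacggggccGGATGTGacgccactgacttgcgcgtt
MAGEC2 (chrX:142205270-142205336, minus strand): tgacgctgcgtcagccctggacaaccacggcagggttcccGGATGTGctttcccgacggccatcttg
MAGEA4 (chrX:151912414-151912480, plus strand): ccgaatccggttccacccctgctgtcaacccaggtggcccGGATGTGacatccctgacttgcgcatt
MAGEA8 (chrX:149881131-149881197, plus strand): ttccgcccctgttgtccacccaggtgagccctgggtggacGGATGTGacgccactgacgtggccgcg

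The windows of MAGEA3 and MAGEA6 were identical over all 300 bases, and both genes were expressed in both genotypes. A window of MAGEA12 and a window of MAGEA2 were 89.6% identical, and the other pairs of their windows were 44.2 to 67.1% identical. Windows of the same gene begin at different start sites. The MAGEA12 windows overlap along the genome, yet they were 42.6% identical to each other, and those of MAGEA2 75.4%. The lower values between the genes therefore do not measure how much their promoters differ. MAGEA2 was expressed, whereas MAGEA12 stayed below 1 CPM in every library. CCGGAA is a form of the core recognised by ETS transcription factors. It was found on either strand only in the windows of MAGEA3 and MAGEA6 among the members, and in 17.2% of all windows. Other forms of this core were not searched for. Whether the other members, or the letters GGATGTG, hold an ETS core was therefore not tested. GGGCGG, a core recognised by the factor SP1, was found in 3 of the 8 members, MAGEA4, MAGEA8 and MAGEC2, and in 44.95% of all windows. Members held 9 to 21 CpG dinucleotides per window, around the median of 14 for all windows. GGATGTG was present in 7 of 15 other MAGE-A, MAGE-B and MAGE-C genes with an entry, including all 4 other MAGE-A genes. These include MAGEA2B, whose window was identical to a window of MAGEA2 and is no separate occurrence. GGATGTG was found in 0 of 11 ubiquitous MAGE genes and in 4 of 52 other cancer-testis antigen genes. The letters were chosen after the sequences were read and occurred in every member window. They therefore could not separate expressed from silent members, and nothing is read from that.

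Total expected counts lay between 32225646 and 44099898 per library, so that 1 CPM, the unit of levels used here (counts scaled to the library total), stood for 32.2 to 44.1 read pairs. A count of 0 allows up to 3 counts, or 0.0680 to 0.0931 CPM. Limits of this kind cover counting error only. THUMPD1 itself was counted 3258, 3315 and 3013 times in WT libraries against 395, 529 and 353 times in THUMPD1 KO libraries, or 80.9 ± 3.65 and 11.04 ± 0.918 CPM (SD, n = 3 per genotype), which left 13.6% of the WT level. The 2 groups of libraries did not overlap (two-sided exact permutation p = 0.1, the smallest that 20 groupings allow; limma-voom log2 fold change −2.87, SE 0.085, adjusted p = 3.17e-08). Of 8 genes known as markers of HEK-293T cells, all 8 passed the filter of at least 1 CPM in at least 3 libraries and summed to 717.5 to 746.2 CPM in WT and 653.1 to 688.9 CPM in THUMPD1 KO. Of these 5 were called (2 higher, 3 lower), against 26.7% of all tested genes, with NEFM at −2.75 the lowest. The source tissue is labelled kidney, yet of 8 markers of differentiated kidney only LRP2 passed this filter, and UMOD and AQP2 were at 0 in every library. Germ cell markers, of interest because MAGE genes are germline genes, summed to 1.14 to 1.45 CPM in WT and 0.898 to 1.11 CPM in THUMPD1 KO. None of these 8 passed the filter, and TNP1, PRM1 and PRM2 were at 0. The part of any of these shifts in the values below was not tested.

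In WT cells 5 members, MAGEA1, MAGEA3, MAGEA6, MAGEA2 and MAGEB2, stood above 1 CPM in all 3 libraries, and in THUMPD1 KO cells the same genes without MAGEA1 did. These 5 genes passed the filter and entered the fit across 15088 genes, and the other 5 members did not. MAGEA1 passed through its WT libraries alone, so a difference in it was given by the filter. MAGEA1 was almost absent from THUMPD1 KO libraries, MAGEB2 was lower in them, and MAGEA3, MAGEA6 and MAGEA2 lay at similar levels in both genotypes.

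**Figure D1:**
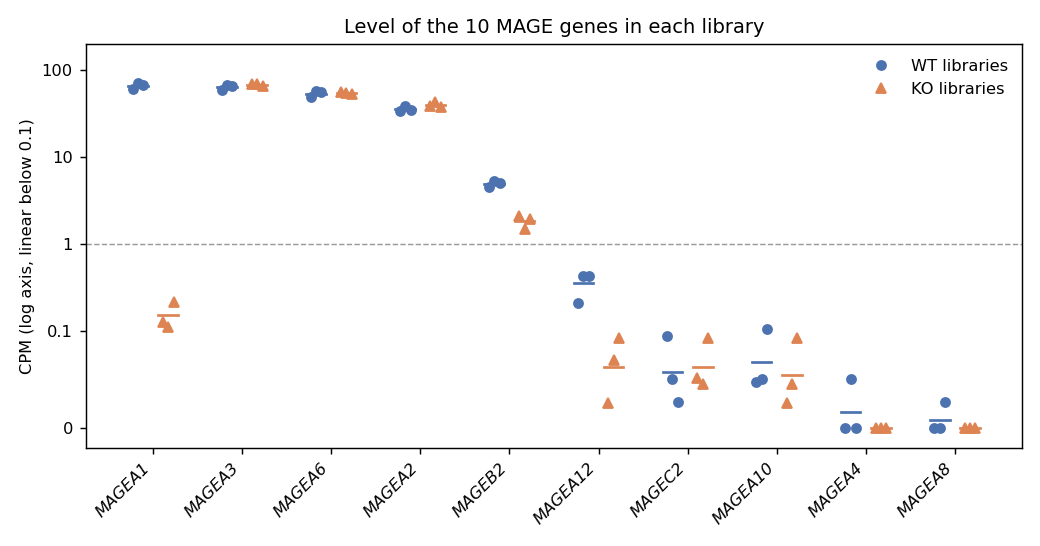
Level of each of the 10 MAGE genes in CPM (log axis, linear below 0.1 CPM) in the 3 WT libraries (circles) and the 3 THUMPD1 KO libraries (triangles), with a short line at each mean and a dashed line at 1 CPM. MAGEA1 stands between 60.25 and 71.2 CPM in WT and between 0.113 and 0.217 CPM in THUMPD1 KO, while MAGEA3, MAGEA6 and MAGEA2 overlap between genotypes.

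MAGEA1 encodes an antigen presented to cytotoxic T cells in melanoma, and its protein is known to bind the transcriptional regulator SKIP, the product of SNW1. It lies at chrX:153179284-153183880 (GRCh38, plus strand; ENSG00000198681.7), and no annotated gene overlaps it. WT replicates 1, 2 and 3 had 2538, 2788 and 2533 expected counts, or 60.25, 71.2 and 67.95 CPM. THUMPD1 KO replicates 1, 2 and 3 had 5, 5 and 7 counts, or 0.129, 0.113 and 0.217 CPM. Every WT library was thus high and every THUMPD1 KO library lay a little above 3 counts, with no overlap. The means were 66.5 ± 5.62 and 0.153 ± 0.0561 CPM (SD, n = 3 per genotype), a 434-fold difference that left 0.230% of the WT level. Pooled over libraries the ratio of THUMPD1 KO to WT was 0.00223, with a 95% exact binomial interval of 0.00130 to 0.00357 that covers counting error only. The log2 fold change fitted after quantile normalization was −8.24 (SE 0.312), smaller in size than the ratio of mean CPM, and it ranged from −8.36 to −8.06 when each library was left out in turn. It was −8.74 with TMM library sizes, −8.71 with library sizes alone, −8.81 by edgeR, −8.84 by DESeq2 and −8.80 without the CPM filter. In bulk RNA, fewer cells with the transcript and less transcript per cell cannot be told apart.

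MAGEA3 and MAGEA6 are near-identical genes whose proteins are known to bind the ligase TRIM28 and to direct it to the AMP-activated kinase subunit encoded by PRKAA1. MAGEA3 lies at chrX:152698767-152702347 (plus strand). It had 59.2, 68.25 and 66.6 CPM in WT against 70.2, 69.0 and 65.1 CPM in THUMPD1 KO, and the 2 groups overlapped. The means were 64.7 ± 4.81 and 68.1 ± 2.64 CPM (SD, n = 3 per genotype), with a log2 fold change of 0.09 (SE 0.063) that lay between 0.01 and 0.13 in all alternative fits. MAGEA6 lies at chrX:152766136-152769716 on the minus strand. It had 49.2, 57.1 and 55.8 CPM in WT against 55.5, 54.8 and 53.85 CPM in THUMPD1 KO, so that the THUMPD1 KO libraries sat inside the range of the WT libraries. Its log2 fold change of 0.03 (SE 0.063) turned sign among the alternative fits, from −0.05 to 0.07. The ratio of MAGEA3 to MAGEA6 counts was 1.20 in each WT library and 1.21 to 1.26 in THUMPD1 KO, and their summed level was 118.7 ± 9.03 CPM in WT and 123 ± 3.46 CPM in THUMPD1 KO.

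MAGEA2 encodes another TRIM28 partner, known for an inhibitory effect on p53, and lies at chrX:152749863-152753884 on the minus strand. Expected counts were 1426.5, 1516.14 and 1293.23 in WT against 1513.04, 1891.45 and 1210.2 in THUMPD1 KO, or 33.9, 38.7 and 34.7 against 38.9, 42.9 and 37.55 CPM. The groups overlapped, with means of 35.8 ± 2.59 and 39.8 ± 2.77 CPM (SD, n = 3 per genotype) and a log2 fold change of 0.17 (SE 0.073). MAGEA2 has a second copy, MAGEA2B, whose RefSeq promoter window was identical to one of its own. The copy MAGEA2B was given 283.74, 313.86 and 489.02 counts in WT against 603, 443.55 and 462.34 in THUMPD1 KO. Between 71.5 and 83.4% of the counts of the pair went to MAGEA2 in each library. Summed, the pair stood at 40.6, 46.7 and 47.8 CPM in WT against 54.45, 52.95 and 51.9 CPM in THUMPD1 KO, so the sums did not overlap although MAGEA2 alone did. The log2 ratio of the mean sums was 0.24, as in a fit in which the copies were summed, an alternative that was added after the data had been seen. MAGEA2B alone had a log2 fold change of 0.55 and was not called (limma-voom adjusted p = 0.0870). It was called with the replicate number as a block (adjusted p = 0.0290), without WT replicate 3 (0.00876) and without THUMPD1 KO replicate 2 (0.0484), and its adjusted p spanned 0.00876 to 0.339 over the alternatives.

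MAGEB2, whose protein is known to repress translation of the stress granule factor G3BP1, was the member furthest from the rest on the X chromosome, at chrX:30215563-30220089 on the short arm (plus strand). It had 191, 209 and 190 counts in WT and 83, 67 and 63 in THUMPD1 KO. In CPM these were 4.53, 5.34 and 5.10 against 2.14, 1.52 and 1.96. The THUMPD1 KO libraries were all lower, with no overlap, and their mean of 1.87 ± 0.317 CPM was 37.5% of the WT mean of 4.99 ± 0.412 CPM (SD, n = 3 per genotype), a 2.67-fold difference. The log2 fold change was −1.50 (SE 0.164), between −1.62 and −1.36 in the alternative fits. MAGEB2 thus stayed above 1 CPM in every THUMPD1 KO library, whereas MAGEA1 lay at 5 to 7 counts. In 2 of the 5 fitted members, MAGEA1 and MAGEB2, the groups did not overlap, against 42.2% of all tested genes. The selection used these columns, so nothing is read from that count.

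The remaining 5 members were low or silent in WT. MAGEA12 (chrX:152733757-152737669, plus strand) had 9, 17 and 16 counts in the WT libraries against 1.02, 3.09 and 3 in the THUMPD1 KO libraries, the means being 0.359 ± 0.126 and 0.0631 ± 0.0340 CPM. The groups did not overlap. Pooled, the ratio of THUMPD1 KO to WT was 0.174 with an exact binomial interval of 0.0650 to 0.385 for counting error only, on totals of 42 and 7.11 counts. An overlapping transcript on the same strand, CSAG4, leaves the source of some of these reads uncertain.

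The other 4 members had no more than 4 counts in any library, and 10 of their 24 values were 0. MAGEC2, another TRIM28 partner (chrX:142202342-142205290, minus strand), had 4, 2 and 1 counts in WT and 2, 2 and 3 in THUMPD1 KO. MAGEA10 (chrX:152133310-152138578, minus strand) had 2, 2 and 4 in WT against 1, 2 and 3 in THUMPD1 KO. MAGEA4 (chrX:151912495-151925171, plus strand), whose protein is known to stabilise the DNA repair ligase RAD18, had 2 counts in WT replicate 2 and 0 elsewhere. MAGEA8 (chrX:149881141-149885835, plus strand) had 1 count in WT replicate 3 and 0 elsewhere. A difference between genotypes was not detectable at this depth for these 4 genes. Transcripts on the same strand as MAGEA10 and on the opposite strand to MAGEA4 and MAGEC2 overlap them, and whether counting used strand is not stated.

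Levels can be set against each other between genes only per length. On the scale of CPM per kilobase of annotated exon, the WT order was MAGEA1 (38.8 ± 3.28), MAGEA3 (36.5 ± 2.71), MAGEA6 (29.5 ± 2.31), MAGEA2 (15.7 ± 1.14) and MAGEB2 (3.10 ± 0.256), followed by MAGEA12 at 0.183 ± 0.0641 (SD, n = 3 each). The ranges of MAGEA1 and MAGEA3, neighbours in that order, overlapped between libraries, although within each WT library MAGEA1 was the higher of the pair, with 35.2 against 33.4, 41.6 against 38.5 and 39.7 against 37.6 CPM per kilobase. In THUMPD1 KO the order was MAGEA3 (38.4 ± 1.49), MAGEA6 (29.9 ± 0.456), MAGEA2 (17.5 ± 1.22), MAGEB2 (1.16 ± 0.197) and MAGEA1 (0.0895 ± 0.0328). The 2 highest places of WT were thus held by MAGEA1 and MAGEA3, and MAGEA1 moved to the fifth place in THUMPD1 KO. The ratio of MAGEA1 to MAGEA3 counts within a library was 1.02 to 1.04 in WT and 0.00164 to 0.00333 in THUMPD1 KO.

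In CPM, which is not scaled for transcript length, all 10 members together summed to 207.4, 241.1 and 230.7 CPM in WT and to 167, 168.5 and 159 CPM in THUMPD1 KO. MAGEA1 supplied 29.0 to 29.5% of these summed counts in WT and 0.0673 to 0.137% in THUMPD1 KO, whereas MAGEA3, MAGEA6 and MAGEA2 together made up 68.0 to 68.6% of it in WT and 98.5 to 98.9% in THUMPD1 KO. Without MAGEA1 the sum was 160 ± 11.6 CPM in WT and 165 ± 5.16 CPM in THUMPD1 KO (SD, n = 3 per genotype), and the libraries of the genotypes overlapped.

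Members differ in how much of their transcript no other gene shares, which bears on how reads can be assigned. In GENCODE 44 transcripts, 99.3% of the stretches of 50 bases in MAGEA1 and 100% of those of 100 bases occurred in no other gene. For MAGEB2 both values were 100%. For MAGEA3 they were 44.2 and 64.2%, and 54.2% of its stretches of 50 bases also occurred in MAGEA6. For MAGEA6 they were 46.3 and 65.9%. For MAGEA2 they were 3.62 and 10.6%, with 96.4% of stretches of 50 bases shared with MAGEA2B. The division of counts within the pairs MAGEA3 with MAGEA6 and MAGEA2 with MAGEA2B is therefore uncertain, while MAGEA1 and MAGEB2, whose levels differed most between genotypes among the expressed members, had almost no such sharing. The read length is not stated in the sources used here.

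**Figure D2:**
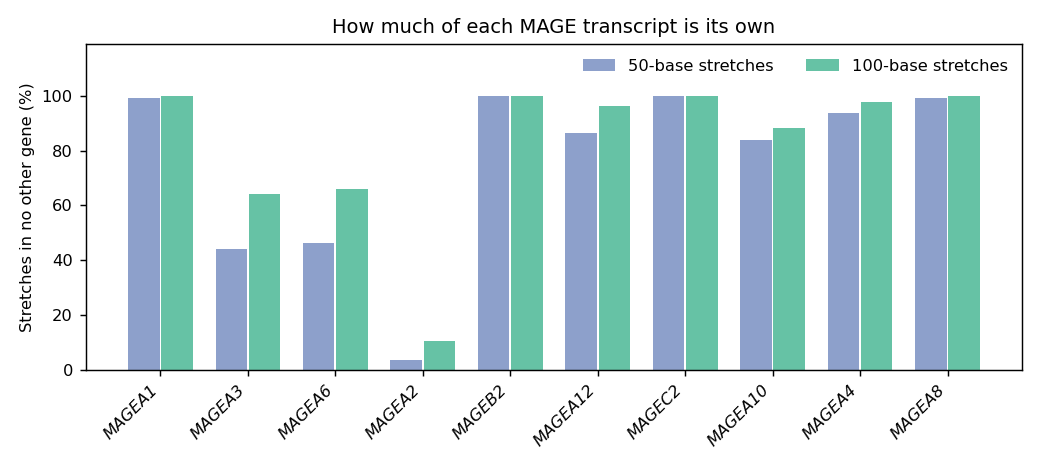
Share of all stretches of 50 or 100 bases (bars, percent) in the GENCODE 44 transcripts of each of the 10 MAGE genes that occur in no other gene. MAGEA2 stands at 3.62 and 10.6% because of MAGEA2B, MAGEA3 and MAGEA6 lie between 44.2 and 65.9%, and MAGEA1 and MAGEB2 are at 99.3% or more.

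Among the other 31 rows with a MAGE symbol, 11 were at 0 in every library and 12 had 1 to 99 counts in all. Of the 22 other rows of MAGE-A, MAGE-B and MAGE-C type, MAGEA2B alone passed the filter, 10 were at 0, and no other had more than 15 counts in any library. Transcription of this class in WT was thus confined, among the rows above 1 CPM, to MAGEA1, MAGEA3, MAGEA6, MAGEA2, its copy MAGEA2B and MAGEB2.

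Genes related to the members in function or position were grouped in lists that were drawn up with earlier results of these data known, and some genes of the lists are named after their values were seen. Their calls come from the fit across all 15088 genes, in which 4025 (26.7%) were called at an adjusted p under 0.05. By direction, 13.7% of all tested genes were called higher and 13.0% called lower, around a median log2 fold change of 0.02. Leaving out THUMPD1 KO replicate 2 lowered the number called to 2663.

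Ubiquitous MAGE genes share the homology domain with the members but not their germline pattern. Of 12 such genes 9 passed the filter, and of these 1 rose, 1 fell and 7 were not called, a share of 22.2% with a median log2 fold change of −0.01. MAGED1, an adaptor in neurotrophin receptor signalling, fell from 230 ± 11.8 to 150 ± 12.0 CPM (SD, n = 3 per genotype; log2 fold change −0.62, SE 0.062, limma-voom adjusted p = 6.68e-05). MAGEH1 rose from 2.07 ± 0.234 to 4.30 ± 0.429 CPM (0.99, SE 0.133, adjusted p = 0.000409). MAGED2, MAGED4, MAGED4B, MAGEE1 and MAGEF1, the other ubiquitous genes with a MAGE symbol and at least 100 counts in all, had log2 fold changes from −0.26 to 0.32 and were not called. MAGED4B was called with the replicate block (adjusted p = 0.0248), without THUMPD1 KO replicate 2 (0.0157) and by DESeq2 (0.0336), in a range of 0.0157 to 0.253, and MAGED2 without replicate 1 of either genotype (0.0376 for WT and 0.0364 for THUMPD1 KO, in a range of 0.0364 to 0.283). MAGED4 and MAGED4B are near-identical copies, and their summed level was 38.2 ± 2.32 CPM in WT and 40.3 ± 2.95 CPM in THUMPD1 KO.

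Genes whose proteins are known to act with MAGE proteins were called in 7 of 16 tested cases (5 higher, 2 lower). This was 43.75%, against 26.7% of all tested genes, and their median log2 fold change was 0.06. RAD18, the partner of MAGEA4, rose by 0.38 on the log2 scale (SE 0.044, limma-voom adjusted p = 0.000175). USP7, a deubiquitinase found with MAGEL2 and the ligase TRIM27, had a log2 fold change of −0.42 (SE 0.061, adjusted p = 0.000731). USP7 lies on chromosome 16 between the end of the short arm and THUMPD1, where the 242 tested genes had a median of −0.40 and 77.7% were called lower; the part of this stretch in its value was not tested. HUWE1, a ligase found with MAGEA11, had a log2 fold change of 0.22 (adjusted p = 0.0148), with adjusted p values of 0.0035 to 0.059 over the alternatives, and was not called when replicate 2 of either genotype or replicate 3 of THUMPD1 KO was left out. TRIM28, the ligase of MAGEA2, MAGEA3, MAGEA6 and MAGEC2, stood at 490 CPM in WT and 474 CPM in THUMPD1 KO and was not called (−0.07, adjusted p = 0.375), and neither was PRKAA1 (0.15, 0.0594), which was called with the replicate block (0.0235) and without WT replicate 1 (0.00781). G3BP1, the target of MAGEB2, rose by 0.17 (limma-voom adjusted p = 0.0285) and SNW1, the partner of MAGEA1, by 0.15 (0.0336). However, SNW1 was called in 6 and G3BP1 in 8 of 13 alternatives only. These are RNA levels, whereas the known relations concern translation of G3BP1 and binding between proteins, and neither relation was tested. TRIM31 was at 0 in every library. The count of 7 dropped to 2 without THUMPD1 KO replicate 2 and to 3 without THUMPD1 KO replicate 3 or WT replicate 3.

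Regulators known for MAGE promoters included DNA methyltransferases, TET enzymes, methyl-CpG readers, histone modifiers and ETS or SP1 factors. Of 22 tested, 5 were called (2 higher, 3 lower), or 22.7% against 26.7% of all tested genes. Their median log2 fold change was 0.01. SETDB1, a histone H3 lysine methyltransferase, rose by 0.37 (SE 0.055, limma-voom adjusted p = 0.000737), and MBD1, a methyl-CpG reader, rose by 0.25 (0.00490). EHMT2, another histone methyltransferase, had a log2 fold change of −0.24 (adjusted p = 0.00627), TET1 one of −0.23 (0.0107) and UHRF1, which guides maintenance methylation, one of −0.16 (0.0154). Without WT replicate 3 TET1 and UHRF1 were not called (adjusted p = 0.0508 and 0.0654), nor was UHRF1 without THUMPD1 KO replicate 2 (0.0754). The maintenance methyltransferase DNMT1 stood at 297 CPM in WT and 300.4 CPM in THUMPD1 KO (0.01, adjusted p = 0.884). DNMT3A (−0.11, adjusted p = 0.290) and DNMT3B (−0.14, 0.0551) were not called. DNMT3B was called in 4 of the alternatives, and its adjusted p spanned 0.0303 to 0.176. CTCFL, a germline paralogue of CTCF, did not pass the filter, with at most 3 counts in any library. With the replicate number as a block 8 regulators were called (4 higher, 4 lower), and without WT replicate 3 there were 3.

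Other cancer-testis antigens were mostly silent as well. Of 66 such genes 30 were at 0 in every library, 11 had more than 3 counts in any library, and 4 passed the filter. PRAME, an antigen known from melanoma, fell from 41.9 ± 0.643 to 19.3 ± 0.667 CPM (SD, n = 3 per genotype; log2 fold change −1.10, limma-voom adjusted p = 4.24e-07). It lies on chromosome 22, where the 375 tested genes had a median of −0.34 and 67.5% were called lower; the part of this in its value was not tested. SPA17, a sperm surface protein gene, rose from 6.92 ± 0.409 to 14.2 ± 0.869 CPM (1.03, adjusted p = 6.91e-05). CSAG3, which lies beside MAGEA2, had a log2 fold change of 0.26 (limma-voom adjusted p = 0.0525). Its adjusted p was 0.0277 with the replicate block and 0.0429 without THUMPD1 KO replicate 1, in a range of 0.0277 to 0.177. Of its stretches of 50 bases 95.6% also occur in CSAG2, so the division of counts between them is uncertain. TEX15 had a log2 fold change of −0.06 (limma-voom adjusted p = 0.596).

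Position along X was examined because MAGEA1 shares its part of the long arm with MAGEA3, MAGEA2, MAGEA6 and MAGEA12. Within 1 Mb of MAGEA1, 26 tested genes outside the selection had a median log2 fold change of 0.01 and a range of −0.90 to 0.73. Of these 10 were called (4 higher, 6 lower), or 38.5%, and 6 were called without WT replicate 3. Among all 521 other tested X genes 26.7% were called, with a median of 0.01. No gene in this window approached the −8.24 of MAGEA1. The nearest tested gene on the side of lower coordinates was PNMA6A, 104 kb away, which fell from 18.6 ± 0.974 to 9.98 ± 0.943 CPM (SD, n = 3 per genotype; log2 fold change −0.90, limma-voom adjusted p = 2.20e-05). PNMA6A belongs to a family with close copies, and its expected counts were in part not whole. PNMA3, ZNF185, NSDHL and CETN2 followed on that side with 0.18, −0.48, −0.03 and 0.13, of which only ZNF185 was called (adjusted p = 0.0101). On the other side ZNF275, 150 kb away, rose by 0.16 (0.0211). TREX2, HAUS7, CCNQ and DUSP9 followed with −0.18, 0.01, 0.13 and −0.32, of which only DUSP9 was called (0.0145). Leaving out THUMPD1 KO replicate 2 ended the calls of ZNF185 (0.0546) and DUSP9 (0.0737), leaving out WT replicate 3 those of ZNF275 (0.069) and DUSP9 (0.0584), and leaving out THUMPD1 KO replicate 1 that of ZNF275 (0.066). Further out, SLC6A8, the creatine transporter gene, had a log2 fold change of −0.37 (0.000773), and IDH3G, for a subunit of isocitrate dehydrogenase, one of −0.24 (0.00425).

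**Figure D3:**
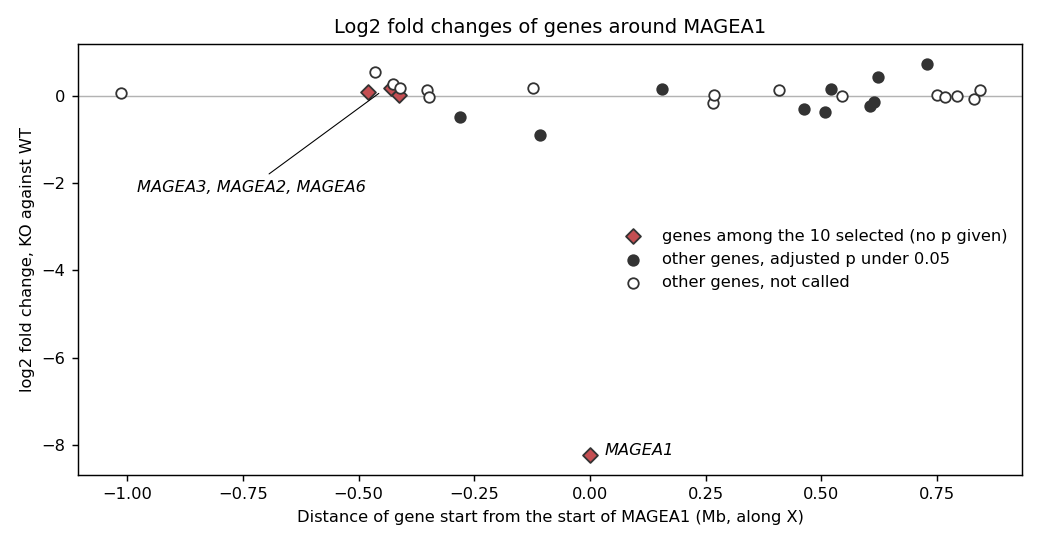
Log2 fold change of THUMPD1 KO against WT (vertical axis) for tested genes around MAGEA1, by distance of the gene start from that of MAGEA1 in Mb along X. MAGEA1 stands alone at −8.24, MAGEA3, MAGEA2 and MAGEA6 lie between 0.03 and 0.17, and the 26 other genes lie between −0.90 and 0.73.

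Genes with a pattern most like that of MAGEA1 were found by the Euclidean distance between log2(CPM + 0.5) values centred on each gene's mean over the 6 libraries. The closest were POTEF (distance 2.53), ENSG00000286058 (3.26), POTEI (3.73), POTEE (3.84) and PAPLN (3.87). The first 4 lie on chromosome 2 and PAPLN on chromosome 14, and none is on X. The POTE genes are primate-specific genes of a family with close copies, and how counting shared reads out between these copies is not known. POTEF had 574.34, 501.09 and 504.79 counts in the WT libraries against 3.14, 1.99 and 1.67 in the THUMPD1 KO libraries, so it was high in every WT library and at the floor in THUMPD1 KO. These genes were picked for this likeness, and no test is given.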

How the data were processed

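RNA from 6 HEK-293T libraries (ribosomal RNA-depleted, stranded, paired-end) was aligned to GRCh38 with STAR and quantified with RSEM by the authors, who deposited expected counts per gene; versions and read length are not given in the sources used here. The methods name GENCODE 46. Positions and transcripts here came from GENCODE 44, which held 99.4% of the table's IDs, and exon lengths per kilobase are its merged exons.

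The deposited expected counts were divided by library totals to give CPM. A filter of 1 CPM or more in 3 or more libraries left 15088 genes with 99.7 to 99.8% of counts. Quantile normalization was followed by a limma-voom fit (limma 3.58.1, R 4.3.3) of genotype alone, two-sided, with Benjamini-Hochberg adjustment over all genes and a threshold of 0.05. The procedure was also run on simulated counts with known fold changes, and the outcome of that run is not reported here. The number of libraries in the filter was chosen here.

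The members and lists were chosen with earlier results of these data known. Named were all members, THUMPD1, at most 3 called genes of each list, MAGE rows with at least 100 counts, the 5 tested genes nearest to MAGEA1 on each side and the 5 most like it. TRIM28, TRIM31, PRKAA1, G3BP1, SNW1, TET1, UHRF1, CTCFL, the DNMT genes, CSAG3, TEX15 and the silent or passing cell markers were added after their values were seen. HDAC1 is in 2 lists. Some cell marker results are not reported here.

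The replicate numbers were checked on 11717 genes by correlating deviations from genotype means. The correlations were 0.287, 0.257 and 0.162 for equal numbers and −0.275 to 0.113 for unequal ones. The labels give replicate numbers but state no pairing, and the lowest equal-number value, 0.162, lay near the highest unequal one, 0.113. Whether the numbers pair the libraries is therefore uncertain. The replicate block was an alternative, since the study's fit has none, and the main p values take no account of pairing. Other alternatives were TMM or plain library sizes, edgeR 4.0.16 (quasi-likelihood) and DESeq2 1.42.0 on rounded counts, no CPM filter, 1 CPM in all 6 libraries, the longest transcript as length, and each library left out.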

Additional observations from a re-analysis of the deposited data

How the results depend on the processing

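Among the fitted members, the direction held in every fit that included the gene, except for MAGEA6 (−0.05 to 0.07). MAGEA1 was not in the fit that required 1 CPM in all 6 libraries. The members were selected on these libraries, so nothing is read from a held direction. The log2 fold change of MAGEA1 lay between −8.84 and −8.06, and that of MAGEB2 between −1.62 and −1.36. That of MAGEA2 lay between 0.10 and 0.23, and was 0.24 when its copy MAGEA2B was summed with it. THUMPD1 stayed between −2.96 and −2.79. Counts of called genes moved with single libraries. When each library was left out in turn, they lay between 2663 and 4245 for all genes, from 2 to 6 for ligase partners, from 3 to 7 for promoter regulators and from 6 to 10 for neighbours of MAGEA1. Without the CPM filter 4 partners were called. With the replicate block the number of called genes was 5297, with 10 partners, 8 regulators (5 without it), 13 neighbours, 3 ubiquitous MAGE genes and 3 other cancer-testis antigens; among members the block left the log2 fold changes within 0.01 of the unblocked ones. The cause of these shifts was not tested. Depth limited MAGEA4, MAGEA8, MAGEA10 and MAGEC2, which had at most 4 counts per library. MAGEA12 could not be fitted under the CPM filter.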
